A study of Mus musculus with 6 samples.

Results

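The endothelial cell genes described here are 10 mRNAs by which the cells lining blood vessels are usually recognised: the VEGF receptors Kdr and Flt1, the angiopoietin receptor Tek and its relative Tie1, the junction proteins Cdh5 and Pecam1, the TGF-beta co-receptor Eng, the clotting protein Vwf, the surface sialomucin Emcn and the secreted protein Egfl7. They were chosen by name and found through their Ensembl gene identifiers among the 18437 mRNAs listed in any library. All 10 were listed, 9 of them in every library, and all 10 passed the minimum of 30 reads over the 6 libraries that left 14362 mRNAs for the background counts.

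The 6 libraries were Ribo-seq libraries, which sequence the mRNA fragments held by translating ribosomes, made from untreated wild-type C57BL/6J mice aged 4 weeks. The labels name lung, heart, kidney, brain, colon and small intestine with 1 library each, so no value has a replicate and no test between tissues was made. Each value is a ribosome density in RPKM, which divides the reads on a coding sequence (CDS) by its length and by all CDS reads of that library. Intervals are 95% intervals of read counts, they cover counting error only, and reads without molecular identifiers are not independent molecules.

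Endothelial cells form a sheet in every vessel, held together by junctions built on Cdh5 and Pecam1. Their growth and survival depend on VEGF ligands acting on Kdr, while Flt1 binds the same ligands with high affinity and limits what reaches Kdr. Angiopoietins act on Tek, and Tie1 modifies that signal. Capillaries differ between organs. Those of the lung form a dense net around the air spaces, those of the gut and parts of the kidney carry pores closed by diaphragms of Plvap, and those of the brain are sealed by tight junctions rich in Cldn5.

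Depth ranged from 4504853 to 10635031 reads on CDSs, and 11520 to 15028 mRNAs per library had reads. The labels were set against 3 markers per tissue, of which 2 were listed for small intestine. The markers followed the label in 2 libraries, heart and lung, and went against it in 4. The library labelled brain held 3368 RPKM of Apoa4, an apolipoprotein of the small intestine, and that labelled colon held 16438 RPKM of Umod, a kidney tubule protein. The library labelled kidney held 2486 RPKM of Muc2, the mucin of colon goblet cells, and that labelled small intestine 683 RPKM of Snap25, a synaptic protein. Libraries are therefore called by their labels only, and the folds of lung over heart are the ones that rest on labels their markers followed. A single mRNA, Kri1 of ribosome biogenesis, made up 0.400% of all reads under the label lung and 22.1% under the label kidney, where it lowers every other RPKM. The median mRNA, among 8649 with reads in every library, was itself higher in the library labelled lung, by 0.36 (log2) over that labelled brain, 0.32 over colon, 0.67 over heart, 0.65 over kidney and 0.62 over small intestine, and all folds below stand on top of that shift.

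Sequence around the start of these genes is shown first, because binding sites of ETS factors, the family of Ets1, Erg and Fli1, are known in many endothelial promoters. The search covered 250 bases before to 50 bases after the start of the listed transcript on GRCm39, on both strands. CNGGAAG was taken as an ETS motif. AACAGGAA, a longer motif that shares GGAA with it, was also searched, and can match with or without a CNGGAAG match. CNGGAAG was found in 6 of the 10 promoters (60%) and in 6186 of 18304 promoters of listed mRNAs (33.8%). AACAGGAA was found in 3 of the 10 (30%), namely those of Cdh5, Emcn and Egfl7, and in 432 of all (2.36%). The lines give 30 bases before the transcript start of 5 genes, 5′ to 3′ on the strand of the gene, with the motif on either strand in capitals.
Pecam1, chr11:106641524-106641553 (- strand): agcacagagaaCTTCCTGgcgtgctgtcgg
Cdh5, chr8:104828185-104828214 (+ strand): aaaggaacaatAACAGGAAaccatcccgag
Flt1, chr5:147662876-147662905 (- strand): ccttgacgtcaCTGGAAGgaggtgccgggg
Tek, chr4:94627219-94627248 (+ strand): aaattgattgcCTTCCAGgttatgatttct
Emcn, chr3:137046655-137046684 (+ strand): agaagggtctcTTCCTGTTcaaatcccatc
The capitals in Cdh5 and Emcn are the longer motif, and the window of Cdh5 held no CNGGAAG. In Emcn and Egfl7 the longer motif overlaps a match of the shorter one. Vwf held CNGGAAG at 2 places before the start, in Egfl7 the matches lie after it, and the windows of Kdr, Tie1 and Eng held neither motif. Egfl7 is also the host of a microRNA of endothelial cells. Mir126a lies inside Egfl7 on the same strand, at chr2:26481369-26481441, and its mature 3′ product has the RefSeq sequence below with the seed, bases 2 to 8, in capitals.
mmu-miR-126a-3p: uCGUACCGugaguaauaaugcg
These libraries hold ribosome footprints, so no level of the microRNA was measured.

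The 10 mRNAs together had 2561 RPKM (2541 to 2582) in the library labelled lung, from 58071 reads. The sum was 547 RPKM (538 to 556) in that labelled heart, 256 (247 to 266) in colon, 118 (115 to 123) in brain, 96.9 (92.9 to 101) in kidney and 51.2 (48.0 to 54.5) in small intestine. The library labelled lung was thus 4.68-fold above heart, 10-fold above colon, 21.6-fold above brain, 26.4-fold above kidney and 50.02-fold above small intestine. These intervals are those of the summed reads, scaled to the sum as if every read weighed the same. Reads on short CDSs weigh more in RPKM, so the intervals are somewhat too narrow. The intervals of the 6 sums do not overlap, but the order of the libraries labelled brain and kidney turned when Kri1 or the 100 mRNAs with most reads were left out of the scaling, or when the geometric mean or the median of the 10 replaced the sum. By the median, the library labelled colon (18.8 RPKM) also came above that labelled heart (18.5 RPKM). In bulk tissue, fewer endothelial cells and less RNA or fewer ribosomes per endothelial cell cannot be told apart.

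The library labelled lung held the highest RPKM of 9 of the 10 mRNAs, against 26.2% of all mRNAs tested. Emcn was the exception, with its highest value in the library labelled colon. All 9 were also past 2-fold over the highest of the other 5 libraries, against 11.3% of all mRNAs. The median log2 ratio of the 10 over the highest other library was 2.14, beside -1.38 for all mRNAs tested. Over single libraries, 9 of 10 were past 2-fold above the library labelled brain (background 33.8%), 9 above colon (31.4%), 9 above heart (36.4%), 10 above kidney (35.5%) and 10 above small intestine (34.8%). The median log2 ratios of the 10 were 4.57, 3.09, 2.22, 4.68 and 5.54 in that order, and those of all mRNAs tested were 0.43, 0.31, 0.44, 0.46 and 0.14. At the other end, 7 of the 10 were lowest in the library labelled small intestine (14.8% of all mRNAs), 2 in that labelled brain and 1 in that labelled colon. The libraries labelled lung and heart were the highest pair for 6 of the 10 (7.6% of all mRNAs). With those libraries alone, 9 of 10 were higher in that labelled lung, which follows from the counts above and adds nothing to them.

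**Figure D1:**
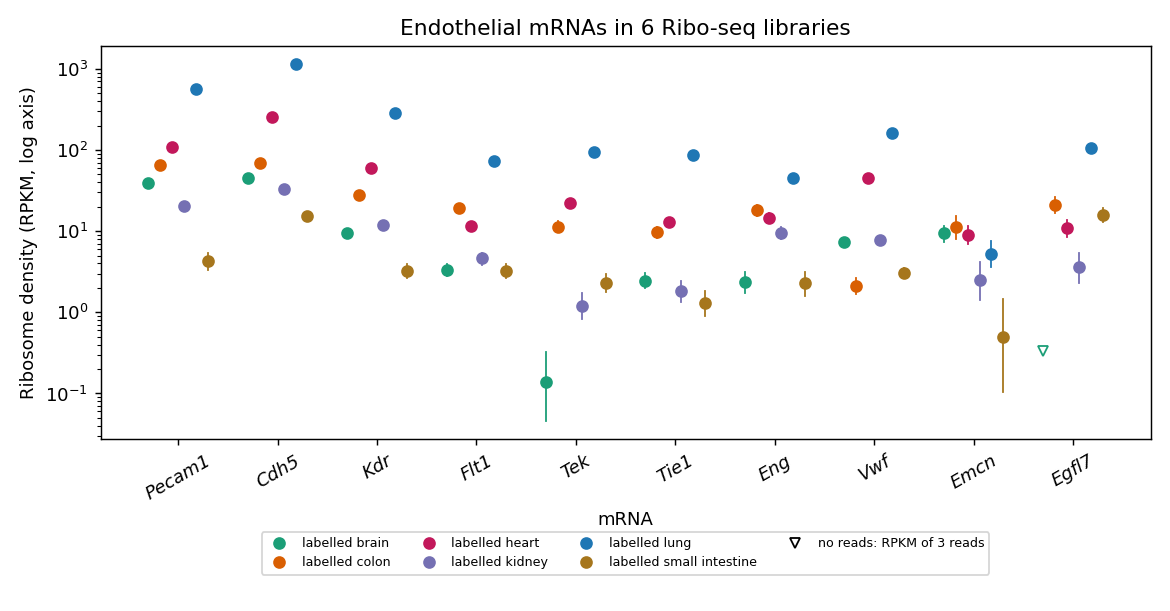
Ribosome density (RPKM, log axis) of the 10 endothelial mRNAs in each of the 6 libraries, with 95% counting intervals as bars; the open triangle marks the RPKM that 3 reads would give for Egfl7, which was not listed in the library labelled brain. The library labelled lung lies on top for every mRNA but Emcn, where 3 libraries lie above it.

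The VEGF receptors were both highest in the library labelled lung. Kdr, the main signalling receptor for VEGF-A, lies at chr5:76093487-76139884 and had 284 RPKM in the library labelled lung, 59.2 in that labelled heart, 27.7 in colon, 11.9 in kidney, 9.46 in brain and 3.24 in small intestine. Each step in this order was larger than counting error, and the top one was 4.80-fold (4.57 to 5.05). Flt1, the decoy-like receptor at chr5:147498414-147662826, had 74.1 RPKM in the library labelled lung, 19.5 in colon, 11.4 in heart, 4.62 in kidney, 3.34 in brain and 3.24 in small intestine. The lung-labelled value of Flt1 was 3.79-fold (3.39 to 4.26) over that of the library labelled colon, and the lowest 2 libraries were not apart (1.03-fold, 0.792 to 1.35).

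The balance between the VEGF receptors differed between libraries. Flt1 relative to Kdr, as a ratio of RPKM, was 0.193 (0.172 to 0.216) in the library labelled heart and 0.261 (0.249 to 0.273) in that labelled lung. It was 0.353 (0.289 to 0.428) in brain, 0.388 (0.317 to 0.473) in kidney, 0.706 (0.614 to 0.811) in colon and 0.999 (0.749 to 1.33) in small intestine. The library with least of both receptors thus had equal densities on them, within counting error, and that labelled heart leaned most to Kdr. Such ratios within a library do not depend on how the library is scaled.

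Tek, the angiopoietin receptor at chr4:94627291-94763224, had 95.7 RPKM in the library labelled lung, 22.3 in heart, 11.4 in colon, 2.33 in small intestine, 1.21 in kidney and 0.140 in brain. The last value came from 5 reads, and lung over brain was 686-fold with a wide interval (293 to 2114). Tie1, the receptor without a well-established ligand of its own at chr4:118328385-118347261, had 86.6 RPKM in the library labelled lung, 13.0 in heart, 9.66 in colon, 2.46 in brain, 1.82 in kidney and 1.31 in small intestine. It had the largest lead of the 10 in the library labelled lung over the highest other library, 6.68-fold (5.98 to 7.48). The 3 lowest values of Tie1 were not apart from their neighbours, at 1.35-fold (0.938 to 1.97) and 1.39-fold (0.877 to 2.23).

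Tek and Tie1 had similar densities in the library labelled lung, where Tek to Tie1 was 1.10 (1.04 to 1.17), and in that labelled colon, at 1.18 (0.942 to 1.48). The ratio was higher in heart, 1.72 (1.51 to 1.96), and in small intestine, 1.78 (1.15 to 2.80). In the library labelled brain it was 0.0567 (0.0180 to 0.137), with 5 reads of Tek beside 89 of Tie1.

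Cdh5, the cadherin of endothelial junctions at chr8:104828231-104871143, had the highest RPKM of the 10 in 5 libraries and was not apart from Egfl7 in that labelled small intestine. It had 1139 RPKM in the library labelled lung, 252 in heart, 69.7 in colon, 45.1 in brain, 33.2 in kidney and 15.2 in small intestine, and every step of this order was beyond counting error. Lung over heart was 4.52-fold (4.38 to 4.66). Pecam1, an adhesion molecule of the same junctions that platelets and leukocytes also carry, lies at chr11:106543689-106641454 and had 565 RPKM in the library labelled lung, 109 in heart, 65.5 in colon, 39.1 in brain, 20.7 in kidney and 4.23 in small intestine. Its lead over heart was 5.20-fold (4.95 to 5.46) and over small intestine 134-fold (106 to 171). The order of libraries was the same for both junction genes. Pecam1 to Cdh5 was close to 1 in the libraries labelled colon (0.939) and brain (0.867), lower in kidney (0.623), lung (0.496) and heart (0.431), and lowest in small intestine (0.279).

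Eng, the co-receptor through which endothelial cells read BMP9, BMP10 and TGF-beta, lies at chr2:32535543-32574661. Its densities were 45.1 RPKM in the library labelled lung, 18.1 in colon, 14.7 in heart, 9.56 in kidney, 2.35 in brain and 2.27 in small intestine. Eng had the smallest lead in the library labelled lung among the 9, 2.49-fold (2.09 to 2.97) over colon, and with median-of-ratios scaling it came to 1.97-fold over heart and missed the limit. Its lowest 2 values were not apart (1.04-fold, 0.655 to 1.65).

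Vwf, which tethers platelets and is stored in endothelial granules and in platelets, lies at chr6:125523737-125663642. It had 160 RPKM in the library labelled lung, 45.6 in heart, 7.70 in kidney, 7.26 in brain, 3.07 in small intestine and 2.13 in colon. Kidney and brain were not apart (1.06-fold, 0.941 to 1.19). Vwf stood out by its value in the library labelled colon, which was the lowest of the 6 for this mRNA only and 75.1-fold (60.4 to 94.7) below that labelled lung. Relative to Cdh5, Vwf was 0.0305 (0.0240 to 0.0385) in the library labelled colon and between 0.141 (0.137 to 0.144, lung) and 0.232 (0.205 to 0.262, kidney) in the other 5. The list of platelet mRNAs, of which 3 of 6 had too few reads to be tested, was also read. The sum of Itga2b, Gp1ba, Gp1bb, Pf4, Ppbp and Itgb3 was 9.89 RPKM in colon, with 3 of 6 at 0, and between 19.0 and 80.2 RPKM in the other 5, with 2 or 3 at 0. The platelet chemokine Pf4 had 0.705 RPKM in colon and 61.7 in heart, and the integrin Itgb3 had 1.88 RPKM in colon and 2.64 to 34.1 in the other 5. The integrin Itga2b did not follow, with 7.31 RPKM in colon, second to 15.4 in lung and above the 0.0303 to 2.55 of the other 4. The part of platelets in the Vwf values was not tested.

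Emcn, a sialomucin found on capillaries and veins more than on arteries, lies at chr3:137046794-137138999 and did not follow the others. It had 11.3 RPKM in the library labelled colon, 9.37 in brain, 9.05 in heart, 5.29 in lung, 2.53 in kidney and 0.501 in small intestine. The reads were few, 40, 78, 58, 32, 15 and 3, so the highest 3 libraries were not apart, at 1.21-fold (0.806 to 1.79) and 1.03-fold (0.727 to 1.48). The library labelled heart was nevertheless 1.71-fold (1.09 to 2.72) above that labelled lung, where every other member was at least 3.06-fold the other way. Lung over kidney was 2.09-fold (1.10 to 4.16) and fell under 2-fold with 4 of the 5 other scalings, to 1.34-fold with median-of-ratios factors. Emcn to Cdh5 ran from 0.00464 (0.00317 to 0.00656) in the library labelled lung to 0.208 (0.163 to 0.262) in that labelled brain, a wider range than the Vwf and Pecam1 ratios to Cdh5. Emcn was also the member with the lowest share of codons ending in G or C, 38.5%, at percentile 5.89 of 18161 mRNAs. The other 9 lay between 50.6% and 68.6%, and 6 of the 10 were above the median of 58.9%. The part of codon composition in the Emcn values was not tested.

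Egfl7, a secreted protein that endothelial cells deposit around growing vessels, lies at chr2:26468286-26486789. It had 106.7 RPKM in the library labelled lung, 21.0 in colon, 15.8 in small intestine, 10.8 in heart and 3.64 in kidney. The library labelled brain did not list it, and 3 reads there would equal 0.338 RPKM. Lung was 5.08-fold (4.02 to 6.49) over colon. Against brain the fold was 315.5 with 3 reads taken as the floor there, and the lower 95% limit from the reads was 256. Colon and small intestine were not apart (1.33-fold, 0.976 to 1.80). In the library labelled small intestine Egfl7 took 30.9% of the summed RPKM of the 10, and 1.98% to 8.21% in the 4 other libraries that listed it. It was not apart from Cdh5 there, at a ratio of 1.04 (0.822 to 1.32), and by reads, which favour long CDSs, it took 10.4% and Cdh5 28.1%. Over the 10 mRNAs, 8 of 50 steps between neighbouring libraries lay within counting error.

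The make-up of the endothelial signal, each mRNA as a percent of the summed RPKM of the 10, differed between libraries. Cdh5 was the largest share in 5 libraries, from 27.2% (colon) to 46.1% (heart), and in that labelled small intestine it took 29.6%, not apart from Egfl7. Pecam1 took 33.0% in brain, 25.6% in colon, 22.1% in lung, 21.4% in kidney, 19.9% in heart and 8.26% in small intestine. The libraries labelled lung and heart had 44.5% and 46.1% Cdh5, 22.1% and 19.9% Pecam1, 11.1% and 10.8% Kdr and 3.74% and 4.07% Tek. Other shares differed more between them, with 0.206% and 1.66% Emcn and 4.17% and 1.98% Egfl7. Eng took 9.86% in kidney and 7.08% in colon against 1.76% in lung. Emcn took 7.91% in brain and 4.43% in colon against 0.206% in lung.

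**Figure D2:**
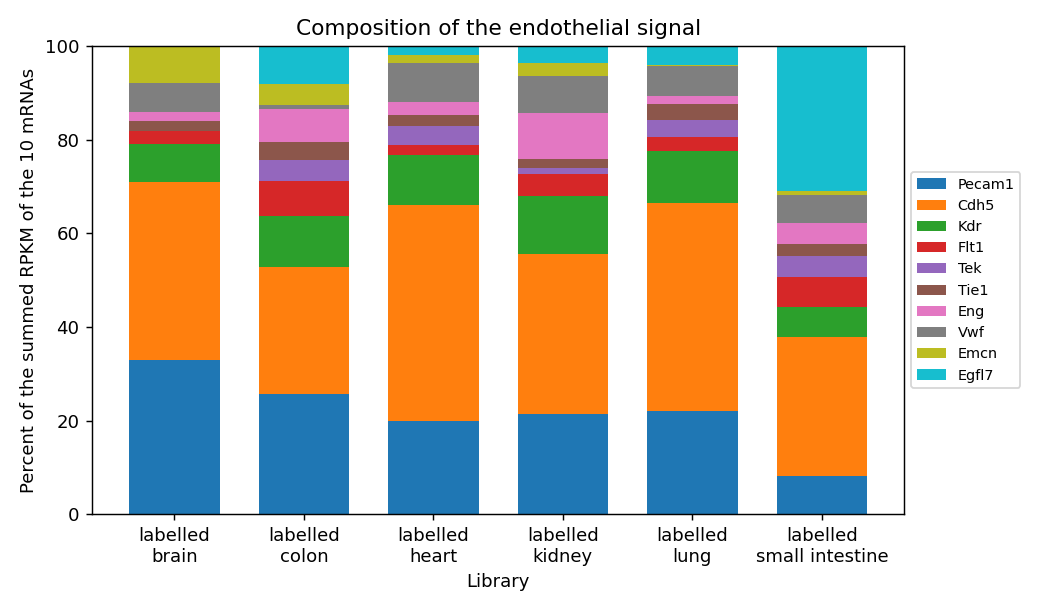
Stacked bars give each of the 10 mRNAs as a percent of their summed RPKM, for each of the 6 libraries. Cdh5 is the largest band in 5 libraries, and in that labelled small intestine Egfl7 (30.9%) and Cdh5 (29.6%) are not apart beyond counting error.

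Because the markers went against labels, lung marker mRNAs were read in the other libraries as well. Sftpc, Scgb1a1 and Sftpa1, secreted by alveolar and airway epithelium, were at 0.509% to 0.846% of their lung-labelled RPKM in the library labelled heart, 0.288% to 0.373% in colon, 0.0191% to 0.195% in brain, 0.0631% to 0.215% in kidney and 0.00133% to 0.0220% in small intestine. The summed endothelial mRNAs were at 21.3%, 10%, 4.63%, 3.78% and 2.00% of their lung-labelled value in those libraries. All 10 endothelial mRNAs lay above the highest lung marker in 4 of the 5 libraries and 8 of 10 did in that labelled brain, the exceptions being Tek and Egfl7. Such a count was largely fixed in advance, since these markers are nearly confined to the library labelled lung. The median mRNA with reads in every library was only 0.32 to 0.67 (log2) lower elsewhere than there. The share of all mRNAs above the same limit was not counted. The libraries labelled heart and colon were first and second by the endothelial mRNAs and by the lung markers. The part of lung RNA in the endothelial values of the other libraries was not tested.

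**Figure D3:**
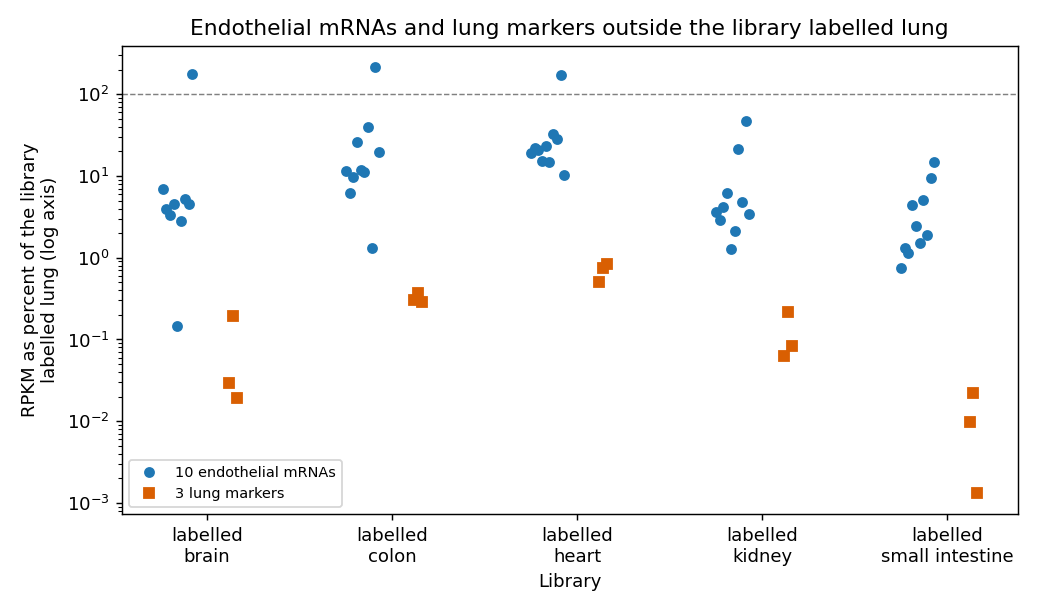
RPKM as a percent of the value in the library labelled lung (log axis, the dashed line is 100) for 10 endothelial mRNAs (circles) and 3 lung markers (squares) in the 5 other libraries; Egfl7 has no reads in the library labelled brain and is not drawn there. The highest circle over brain, colon and heart is Emcn, and all circles but Tek over brain lie above the squares.

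Ligands of the member receptors were read from a list of 10, of which 9 were tested. In the library labelled lung 6 were highest and 4 were past 2-fold over the highest other library. Of all mRNAs tested, 26.2% were highest there and 11.3% were past 2-fold. Vegfa, the main ligand of Kdr, had 1854 RPKM in that library, 168 in heart, 84.9 in colon, 44.6 in brain, 20.5 in small intestine and 16.9 in kidney, so ligand and receptor had their top 3 libraries in the same order. Vegfb, a ligand of Flt1 only, had 15.0 RPKM in the library labelled heart, 0.211 in small intestine and was listed at 0 in the other 4. Pgf, the other ligand bound by Flt1 and not by Kdr, had 25.3 RPKM in lung, 12.6 in brain and 10.2 in small intestine. Bmp10, a ligand of Eng made by the heart atria, had 168 RPKM in the library labelled heart and 2.64 or less in the other 5. Gdf2, which encodes BMP9 and is made in the liver, had at most 0.306 RPKM.

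The Tek ligands differed from each other. Angpt1, the agonist made by cells around vessels, had 41.5 RPKM in the library labelled lung, 26.3 in heart, 7.58 in colon, 2.96 in brain, 2.10 in small intestine and 0.530 in kidney. Angpt2, stored in endothelial cells and able to oppose Angpt1, had 37.1 RPKM in colon and 33.0 in lung, 4.76 or less in heart, small intestine and kidney, and was not listed in brain. Vegfc, a ligand of the lymphatic receptor Flt4, varied least, from 4.62 RPKM in small intestine to 22.1 in lung. Vegfd, the other Flt4 ligand, had 19.5 RPKM in lung and at most 2.46 elsewhere. Tgfb1 had 18.8 RPKM in lung and at most 5.41 in the others.

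Among partner receptors and signalling components, 9 of 11 were highest in the library labelled lung and 7 were past 2-fold over the highest other. The shares of all mRNAs tested were 26.2% and 11.3%. Nrp1, the co-receptor of Kdr for VEGF-A, had 625 RPKM in lung, 164 in heart, 161 in colon, 54.7 in brain, 53.5 in kidney and 37.8 in small intestine. Nrp2, its relative on lymphatic vessels and neurons, was highest in the library labelled kidney, at 119 RPKM, beside 45.8 in lung. Acvrl1, the type I receptor that pairs with Eng, had 409 RPKM in lung and 10.3 to 33.1 in the others. The type II receptors Bmpr2 and Tgfbr2 had 84.6 and 110 RPKM in lung, with 27.1 and 76.3 as the highest other values. Notch4 and its ligand Dll4 had 58.3 and 78.8 RPKM in lung and at most 5.10 and 10.4 elsewhere. Flt4 had 21.2 RPKM in lung and at most 3.41 elsewhere, Notch1 had 72.7 and at most 17.2, and the apelin receptor Aplnr had 29.5 and at most 19.1. Jag1, a further Notch ligand, was even across libraries, from 3.90 to 9.02 RPKM.

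**Figure D4:**
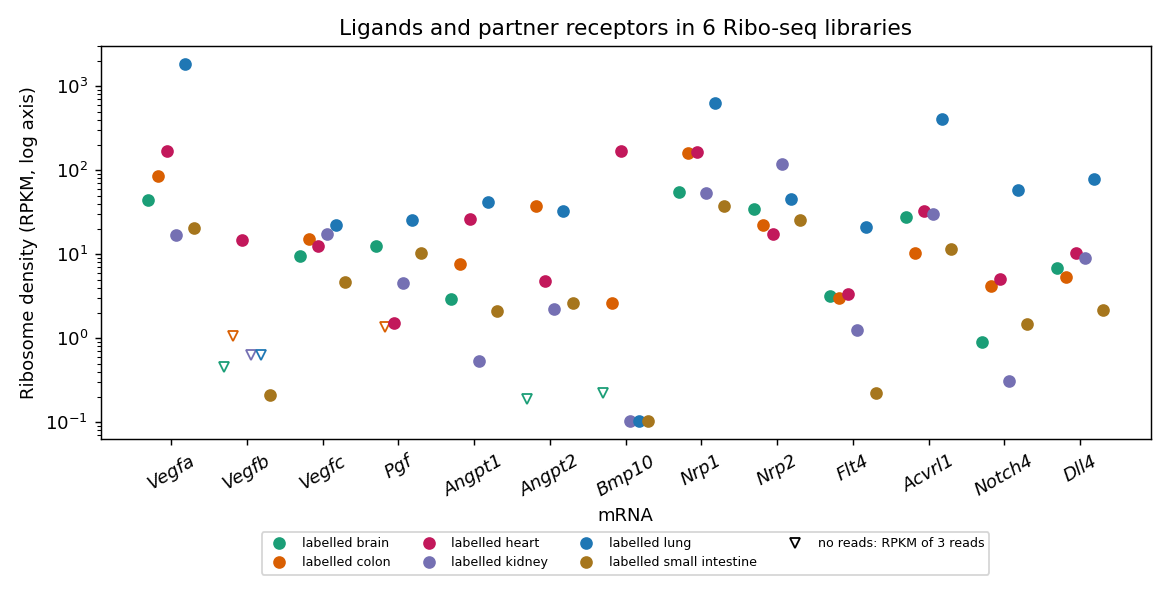
Ribosome density (RPKM, log axis) of 7 ligands and 6 partner receptors or Notch components in the 6 libraries; open triangles mark the RPKM that 3 reads would give where an mRNA had no reads. Vegfa, Nrp1, Flt4, Acvrl1, Notch4 and Dll4 are highest in the library labelled lung, Bmp10 and Vegfb in that labelled heart and Nrp2 in that labelled kidney.

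Of 22 further genes that mark endothelial cells of most vessels, 18 were highest in the library labelled lung and 15 were past 2-fold over the highest other, with a median log2 ratio of 2.11 beside 2.14 for the members. Among all mRNAs tested, 26.2% were highest there and 11.3% past 2-fold. Adgrf5, an adhesion GPCR, led them with 1278 RPKM in lung, 120 in colon and 12.8 to 87.5 in the other 4. The transcription factor Ets1 had 560 RPKM in lung, 138 in colon and 2.70 in small intestine, and the adhesion molecule Icam2 had 463 in lung and at most 43.4 elsewhere. The 4 exceptions were named after their values were seen. Nos3, the endothelial nitric oxide synthase, had 4.24 RPKM in the library labelled heart and 0.0359, from 1 read, in lung, and the ETS factor Fli1 had 4.596 in heart and was listed at 0 in lung. Adgrl4 was highest in colon (5.71 RPKM) and S1pr1, the sphingosine phosphate receptor, in small intestine (19.7 RPKM). Some genes used in every cell were also far apart, since Gapdh had 0.240 RPKM in lung and 53.9 in heart and Tbp was listed at 0 in lung. Of 8 such housekeeping genes 2 were highest in the library labelled lung, none past 2-fold. The 3 strongest of them were within a narrower range, with 388 to 2412 RPKM of Actb, 491 to 1266 of Hsp90ab1 and 225 to 849 of Ppia.

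Lists of vessel types were then set beside the members. The shares of all mRNAs tested to hold beside each count are 26.2% highest in the library labelled lung and 11.3% past 2-fold. Of 8 genes of lung capillary endothelium 7 were highest in the library labelled lung and 4 were past 2-fold, with a median log2 ratio of 1.90. The list shares Icam2 and Calcrl with the further endothelial genes above and Aplnr with the partner receptors. Several later lists overlap as well, so their counts are not separate from each other. Calcrl, the adrenomedullin receptor subunit, had 275 RPKM there and at most 13.0 elsewhere. Car4, a carbonic anhydrase on lung capillaries that colon epithelium also makes, was the exception, with 371 RPKM in the library labelled kidney and 33.6 in lung. Of 8 arterial genes 7 were highest in lung and 4 past 2-fold. Among those past 2-fold, Sox17 is also a further endothelial gene and Dll4 also a partner receptor gene. The gap junction protein Gja4 had 891 RPKM there and at most 27.0 elsewhere, and Sema3g, a semaphorin of arteries, 167 and at most 11.3. Venous genes were less one-sided, with 2 of 5 highest in lung and Nr2f2, the venous transcription factor, highest in colon at 58.6 RPKM. Ephb4, a venous ephrin receptor, had 103 RPKM in lung and 21.6 to 52.3 in 4 others, but 1.23 in small intestine, and the adhesion molecule Vcam1 had 90.8 in lung and 42.9 in small intestine. Of 6 lymphatic genes 4 were highest in lung, among them Flt4, which was already counted with the partner receptors. Pdpn, which alveolar type I cells also make, had 486 RPKM and Lyve1 258 RPKM there, while the chemokine Ccl21a had 40.9 there and 39.1 in brain, and the lymphatic regulator Prox1 was at 0 in lung and at 28.9 in heart.

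Genes of pored capillaries, those of brain capillaries and those of fatty acid handling had 2 of 5, 2 of 8 and 1 of 5 tested past 2-fold in the library labelled lung, where 11.3% of all mRNAs were. Their median log2 ratios over the highest other library were -0.09, -2.45 and -0.09, below the 2.14 of the endothelial 10 and beside -1.38 for all mRNAs tested. Sema3g, Cldn5 and Gpihbp1, each past 2-fold, also stand on the arterial, further endothelial and lung capillary lists, in that order. Plvap, the diaphragm protein, had 576 RPKM in lung, 168 in colon, 93.8 in brain, 45.6 in kidney, 40.7 in heart and 0.597 in small intestine. Igfbp3 had 537 RPKM in colon and 506 in lung. Ehd3 of the same list went the other way from Plvap, with 84.6 RPKM in small intestine and at most 21.9 elsewhere. Esm1 was highest in colon, at 32.2 RPKM, beside 12.2 in lung and 0.711 in small intestine. Among the barrier genes the transporter Abcb1a had 541 RPKM in brain and 252 in kidney against at most 24.7 elsewhere, and the junction protein Ocln 237 and 167 against at most 75.9. Both are also epithelial genes of the gut. Cldn5 had 299 RPKM in lung, 52.3 in heart, 42.4 in small intestine, 11.1 in kidney, 8.83 in colon and 0.144 in brain. The brain vessel transporters Slco1c1 (13.7 RPKM), Mfsd2a (4.08) and Slco1a4 (1.76) were highest in the library labelled small intestine, the one with the brain markers, and were named after their values were seen. The other barrier genes were not highest there. The glucose transporter Slc2a1 had 58.5 RPKM in kidney, 32.8 in lung and 27.9 in small intestine, and Itm2a had 61.6 in lung and 14.6 in small intestine. The fatty acid transporter Cd36 had 901 RPKM in lung and 667 in heart, the binding protein Fabp4 291 in heart and 274 in lung, and the water channel Aqp1 610 in colon and 479 in lung.

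Vessel type genes were also set against Cdh5 in the same library, which scales them to the endothelial signal as read by Cdh5. Reads of these genes from other cell types stay in the ratios. The pairs with genes outside the 10 were chosen after their values were seen, and ratios are of RPKM. Plvap to Cdh5 was 2.41 (2.19 to 2.65) in the library labelled colon, 2.08 (1.92 to 2.26) in brain and 1.37 (1.21 to 1.55) in kidney. It was 0.505 (0.491 to 0.520) in lung, 0.162 (0.146 to 0.178) in heart and 0.0393 (0.0143 to 0.0867) in small intestine. Cldn5 to Cdh5 ran the other way at its ends, with 2.79 (2.32 to 3.35) in the library labelled small intestine and 0.00319 (8.07e-05 to 0.0178) in brain, and 0.127 to 0.334 in the other 4. By markers the library labelled small intestine was the one with Snap25 and Gfap, and those labelled colon, brain and kidney were the ones with kidney, small intestine and colon markers. The intervals of these ratios do not overlap between the library labelled small intestine and any other. Plvap and Cldn5 were the only genes of the pored and barrier lists set against Cdh5. Ehd3 of the pored list was highest in the library labelled small intestine, at 84.6 RPKM, so the low Plvap ratio there does not stand for its list.

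**Figure D5:**
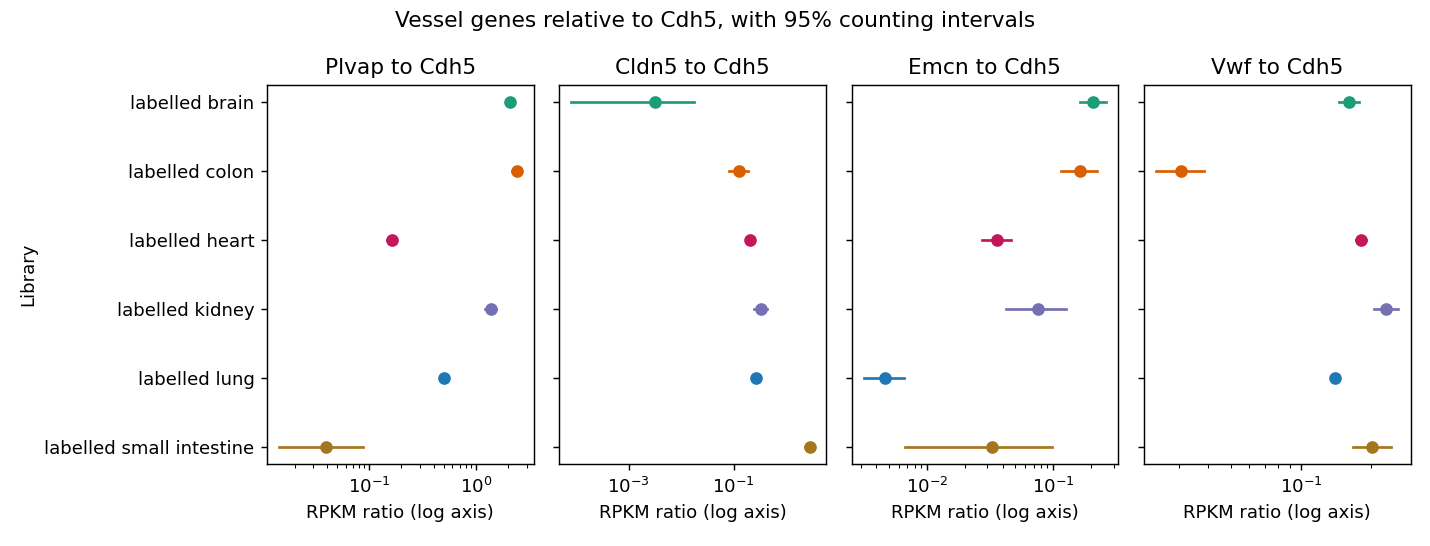
RPKM of Plvap, Cldn5, Emcn and Vwf relative to Cdh5 in each of the 6 libraries (log axes), with 95% counting intervals. The library labelled small intestine is lowest for Plvap at 0.0393 and highest for Cldn5 at 2.79, that labelled lung is lowest for Emcn at 0.00464 and that labelled colon lowest for Vwf at 0.0305.

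The ratios of Nrp1, Adgrf5, Ramp2 and Acvrl1 to Cdh5 varied less than those of Plvap and Cldn5. Nrp1 to Cdh5 ran from 0.549 in the library labelled lung to 2.49 in small intestine, Adgrf5 from 0.347 in heart to 1.73 in colon, Ramp2 from 0.265 in brain to 2.96 in small intestine and Acvrl1 from 0.131 in heart to 0.906 in kidney. Gpihbp1, which carries lipoprotein lipase on capillaries, had ratios of 0.0504 to 0.152 in 5 libraries and no reads in that labelled brain. Ramp2 thus had the same lowest and highest libraries as Cldn5, and Nrp1 the same highest, so a peak in small intestine was not particular to Cldn5. Car4 to Cdh5 varied widely, from 0.0295 in lung to 11.2 in kidney.

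Genes of the cells that accompany vessels were read as lists. Beside each count, 26.2% of all mRNAs tested were highest in the library labelled lung and 11.3% were past 2-fold. Of 9 genes of pericytes and vascular smooth muscle 3 were highest in the library labelled lung, all past 2-fold, and the sum of the 9 was 1727 RPKM in kidney, 1478 in brain, 659 in heart, 464 in lung, 125 in colon and 62.0 in small intestine. Myh11, the smooth muscle myosin, had 1095 RPKM in kidney, 880 in brain and 70.2 in lung, and Acta2 558, 530 and 108. Gut muscle makes both. Without them, a choice made after seeing the values, the sum of the other 7 was 297 RPKM in heart, 286 in lung, 92.6 in colon, 73.5 in kidney, 67.4 in brain and 48.3 in small intestine. The 3 genes highest in lung were Pdgfrb, the pericyte receptor, with 148 RPKM and at most 40.9 elsewhere, Higd1b with 49.7 and at most 3.33, and Notch3 with 47.6 and at most 9.12. Rgs5, Abcc9 and Kcnj8 of the same list went the other way. They were highest in heart, at 111, 98.1 and 20.9 RPKM, and had 0, 6.86 and 5.90 in lung. Cspg4 was highest in colon at 33.5, with 27.8 in lung. Of 8 leukocyte genes 5 were highest in the library labelled lung. Leukocyte mRNAs summed to 436 RPKM there and to 15.3 to 62.7 in the other 5, with S100a9, of neutrophils, at 319 and Ptprc at 69.6, and without S100a9 the sum was 117 there and 14.6 to 62.7 in the others. The macrophage receptor Csf1r was highest in small intestine at 39.8, Adgre1 in kidney at 5.95, with 0.324 in lung, and Itgam in brain at 1.10. Of 6 red cell genes 5 were highest in the library labelled lung, and they summed to 502 RPKM there and to 1.95 to 134 in the others, with 309 of Hbb-bs, 75.4 of Alas2 and 46.1 of Hbb-bt. Hbb-bs and Hbb-bt are near-identical genes whose reads may be split or lost in counting. The part of blood cells in the Pecam1 and Vwf values was not tested.

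The mRNAs most like the 10 in pattern were found by the Pearson correlation of log2(RPKM + 1) with the mean of the 10 over the 6 libraries, among 14286 mRNAs. The values are a description, since 6 libraries share depth and scaling and many mRNAs are high in 1 of them. The first 10 were Cp (r = 0.996), Nrp1 (0.992), Ctla2a (0.992), Anxa6 (0.989), Exosc10 (0.987), Sox7 (0.987), Anxa5 (0.987), Adcy4 (0.985), Sftpa1 (0.985) and Colec12 (0.983). Nrp1 and Sox7 belong to the lists above, and Sftpa1 is one of the lung markers. Ceruloplasmin, Cp, had 106.9 RPKM in the library labelled lung, 29.1 in heart, 22.8 in colon, 10.2 in kidney, 6.61 in brain and 5.42 in small intestine. Ctla2a had 964 RPKM in lung and 9.23 in small intestine. Adgrf5 ranked 18th and Esam 121st, and Nos3, Nrp2 and Jag1 were far down, with r of 0.16, -0.12 and 0.06. With a pseudocount of 0.1 in place of 1, 4 of the first 10 remained.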

How the data were processed

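For each of the 6 libraries the deposited file gives ribosome density in RPKM for 1 transcript of each protein-coding gene, with its Ensembl identifiers and CDS position in the row name. The study's methods, written for its macrophage libraries and taken to hold here, name Cutadapt, removal of reads under 15 nt, STAR alignment to 1 transcript a gene, that of the longest CDS (Ensembl GRCm39 release 107), removal of multi-mapped reads and reads with over 2 mismatches, and counting of predicted P-sites on the CDS. Other samples of the study were not analysed here.

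RPKM times CDS length gave whole reads for 100% of values in each library. Intervals are exact Poisson for the level of 1 mRNA and Clopper-Pearson on the split of reads for a ratio, both 95% and counting error only. For a summed level the Poisson interval of the summed reads was scaled to the sum, which leaves out the unequal weight of reads. An mRNA without reads got the RPKM of 3 reads as its floor. Reads shared with near-identical genes were dropped upstream, which can lower such mRNAs. With 1 library per label there was no test and no p-value, and called means past 2-fold among mRNAs with at least 30 reads over the 6 libraries. Names, coordinates, promoters and codons came from GENCODE M39 on GRCm39, where 13 listed mRNAs had no name, and the microRNA sequence from RefSeq.

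The 10 members and all lists were chosen with earlier results of these data known. Named were all members, the 3 mRNAs of each other list with the highest RPKM, ligands and partner receptors, and the 10 most like mRNAs. Alternatives covered scaling, the read minimum, the fold limit, the summary of the members, the pseudocount and the correlation. Comparison of the libraries labelled lung and heart alone, ratios of genes outside the 10 and of Egfl7 to Cdh5, and list sums without Myh11, Acta2 or S100a9 were added after seeing the data. Promoter motifs, codon composition and the microRNA were not among the planned comparisons. Read recovery and intervals were tested on simulated data. Scripts ran under Python 3.11.15 with pandas 2.3.3, numpy 2.4.6, scipy 1.17.1 and, for figures, matplotlib 3.10.9.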

Additional observations from a re-analysis of the deposited data

How the results depend on the processing

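Of the alternative values, 61 stayed within 1.5 times a count or within the counting interval and 36 moved. None turned the direction between the library labelled lung and another. The tally is no measure of stability, since some settings could not lower a count. Every member passed both alternative read minima, and a lower fold limit can only keep or raise a count. The count of members highest in that library was 9 under every scaling. The count past 2-fold over the highest other library was 8 or 9 and fell to 8 with median-of-ratios factors, where Eng came to 1.97-fold, and the count over kidney fell to 9 in 4 scalings through Emcn.

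The summed level in the library labelled lung over those labelled brain, colon, heart, kidney and small intestine moved as follows, in that order. Values divided by their sum (TPM) gave 23.0, 10.6, 5.59, 23.5 and 45.8-fold. Median-of-ratios factors gave 16.6, 8.05, 3.01, 17.0 and 31.5-fold. Without the 100 mRNAs with most reads the folds were 19.1, 8.75, 3.57, 17.6 and 41.6. The geometric mean of the 10 gave 29.2, 6.70, 4.09, 19.5 and 36.4, and their median 19.1, 5.37, 5.47, 16.4 and 32.1. Without Kri1 the fold was 9.36 over colon, 20.7 over kidney and 43.1 over small intestine, and without mitochondrially encoded mRNAs it was 4.47 over heart. The cause was not tested beyond the construction of each scaling. The 10 most like mRNAs shared 4 with those at a pseudocount of 0.1, and 6 were among the 31 tied at the highest Spearman rho. By reads in place of RPKM, Cdh5 took 35.7%, 35.6%, 32.6%, 27.0% and 25.3% of the signal in the libraries labelled lung, heart, brain, kidney and colon. In that labelled small intestine it took 28.1% by reads and was first, with Egfl7 at 10.4%. No paired analysis was possible because each label has 1 library. Reads were few for Emcn in all libraries, with 3 to 78, and for Tek and Egfl7 in that labelled brain. The library labelled brain had the most CDS reads of all, 10635031.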
